A study of Mus musculus with 4 samples.

Results

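The nuclear genes of oxidative phosphorylation were examined in the hippocampus of C57BL/6 mice aged 12 months. Members were chosen by gene symbol: the Nduf genes of complex I, Sdha to Sdhd of complex II, the Uqcr genes and Cyc1 of complex III, Cox4 to Cox8 of complex IV, the Atp5 genes of complex V, and Cycs, which encodes cytochrome c. The rule found 87 of the 19230 genes in the table, of which 39 belonged to complex I, 4 to complex II, 9 to complex III, 17 to complex IV and 17 to complex V, with Cycs as the mobile carrier. The rule itself uses symbols and no measured values, but it was chosen with earlier results of these data known. Messenger RNA was compared between a control group (Ctrl, 2 libraries, replicates 2 and 3) and a group given Licochalcone A (LA, 2 libraries, replicates 1 and 2) for 30 days. LA is a chalcone of licorice root. The labels describe the treatment of the Ctrl mice with a term from cell culture, and no source used here states the dose or route of LA. No label ties a library to its own mouse, so p-values cover only the library-to-library spread, part of which may be technical.

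Oxidative phosphorylation takes place in the inner mitochondrial membrane. Complexes I and II pass electrons from NADH and succinate to ubiquinone, complex III hands them to cytochrome c, and complex IV delivers them to oxygen. Complexes I, III and IV pump protons, and complex V uses the returning protons to make ATP. Neurons draw most of their ATP from this chain. A few subunits of complexes I, III, IV and V are encoded by mitochondrial DNA, while complex II is wholly nuclear. None of the subunit genes of mitochondrial DNA was found by symbol in the table, so they were not analysed here.

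Levels are in FPKM, fragments scaled to the length of the transcript and to the mapped fragments of the library, which allows levels of different genes to be compared per length. The read totals were not used here, so the counting error of a single value is unknown. FPKM summed over all genes to 386945 to 394912 in 3 libraries and to 441948 in LA replicate 2. Genes listed at 0 numbered 919 to 975 in Ctrl and 1361 to 1440 in LA. Ctrl replicate 3 stood apart in 10 markers of the choroid plexus, the tissue of the ventricles that makes cerebrospinal fluid, whose summed level was 8936 FPKM against 75.4 to 167 FPKM in the other libraries. The 8 markers of myelin and oligodendrocytes summed to 1976 to 2260 FPKM in Ctrl and 3495 to 4292 FPKM in LA. The 9 markers of the leptomeninges, the membranes around the brain, summed to 190 to 193 FPKM in Ctrl and 68.2 to 79.7 FPKM in LA, and 6 markers of the endothelium to 16.6 to 25.6 FPKM in Ctrl and 11.3 to 11.6 FPKM in LA. The 5 markers of erythrocytes summed to 1610 to 1645 FPKM in Ctrl and to 3258 and 1863 FPKM in LA replicates 1 and 2, and the 6 of microglia to 164 to 183 FPKM in Ctrl and 221 to 242 FPKM in LA. The 7 markers of hippocampal neurons, which check the labelled tissue, were all present and summed to 442 to 464 FPKM in each library. Of these, 5 were higher and 2 lower in LA on the log2 scale, and Prox1 was at 17.7 and 7.36 FPKM in LA. The 8 markers of neurons in general summed to 2668 and 2439 FPKM in Ctrl and 2456 and 2814 FPKM in LA. The 6 of astrocytes summed to 654 and 613 FPKM in Ctrl and 740 and 606.5 FPKM in LA. None of the markers of these lists was at 0, and the part of such tissues and cells in the results was not tested. In such bulk tissue a gene that is lower in each cell cannot be told apart from fewer cells that express it.

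Most members were abundant. The mean over the 4 libraries was above 100 FPKM for 54 members, between 10 and 100 FPKM for 23, and below 10 FPKM for 10. The median level was 102 FPKM in complex I, 91.8 FPKM in complex II, 148 FPKM in complex III, 161 FPKM in complex IV and 226 FPKM in complex V. The highest levels belonged to Cox8a (843 FPKM), Ndufa4 (705 FPKM), Cox6a1 (649 FPKM), Cox4i1 (563 FPKM) and Atp5b (545 FPKM). The low members were mostly isoforms used in other tissues and copies of other members. Ndufa11b and Cox7b2 averaged under 1 FPKM, which was the minimum for a test, and 85 members were tested. Ndufa11b stood at 0.06 and 0.31 FPKM in Ctrl and at 0.24 and 0 FPKM in LA. Cox7b2 stood at 0.59 and 0.36 FPKM in Ctrl and at 0.88 and 0.63 FPKM in LA.

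**Figure D1:**
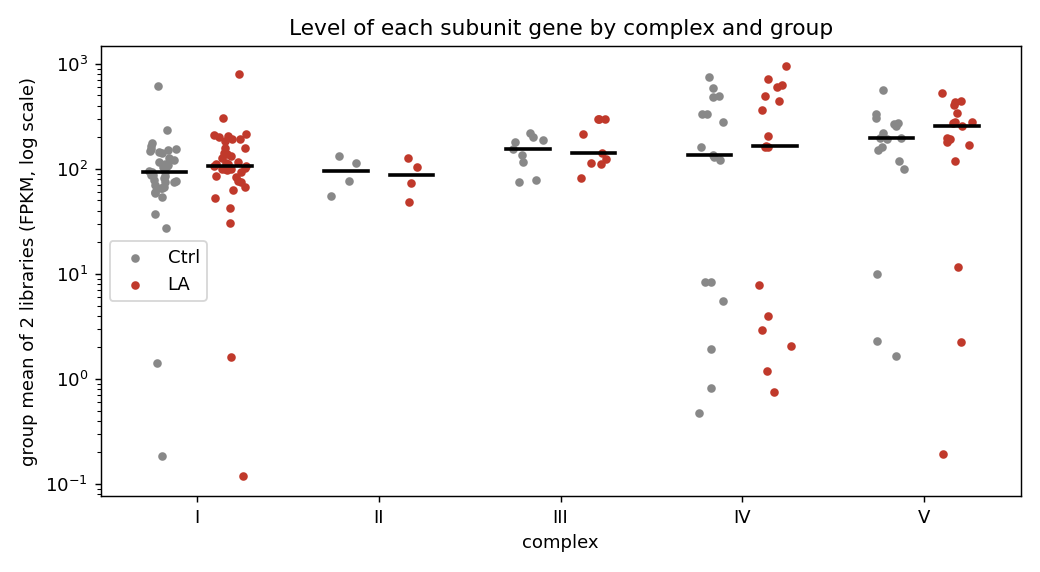
Level of each subunit gene in Ctrl (grey) and LA (red), as the mean of 2 libraries in FPKM on a log axis, by complex; Cycs is not drawn, and the black lines are medians over genes. The 4 genes of complex II sit close together, whereas complex IV holds both the highest member, Cox8a, at 843 FPKM over all libraries, and 6 members under 10 FPKM.

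No member passed the test at an adjusted p of 0.05, where 0.141% of the 13518 genes tested did, all of them lower in LA (limma with Benjamini-Hochberg adjustment). Missing that threshold does not show that a member did not differ. At an unadjusted p under 0.05, 11 members were higher in LA against 3.74% of all genes, and 1 member was lower against 4.06% of all genes, or 7.8% in either direction. Fold changes here are differences of log2(FPKM + 1), LA minus Ctrl. Of the 85 members, 65 had a positive difference, against 47.6% of all genes. Both LA libraries lay above both Ctrl libraries for 43 members and below them for 5, which is 50.6% and 5.88% of the members, against 17.6% and 21.0% of all genes. The median difference of the members was 0.26, against -0.01 over all genes.

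The medians differed between the complexes. The median difference was 0.23 in complex I, -0.11 in complex II, 0.26 in complex III, 0.32 in complex IV and 0.31 in complex V. A positive difference was found for 34 of 38 members in complex I, 0 of 4 in complex II, 6 of 9 in complex III, 12 of 16 in complex IV and 13 of 17 in complex V. Within complex I the median difference was larger for the accessory subunits than for the core subunits. Within complex III it was larger for the small subunits than for the large and redox-active proteins, as described below. These medians and counts are over genes measured in the same 4 libraries, and the differences between complexes were not tested.

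**Figure D2:**
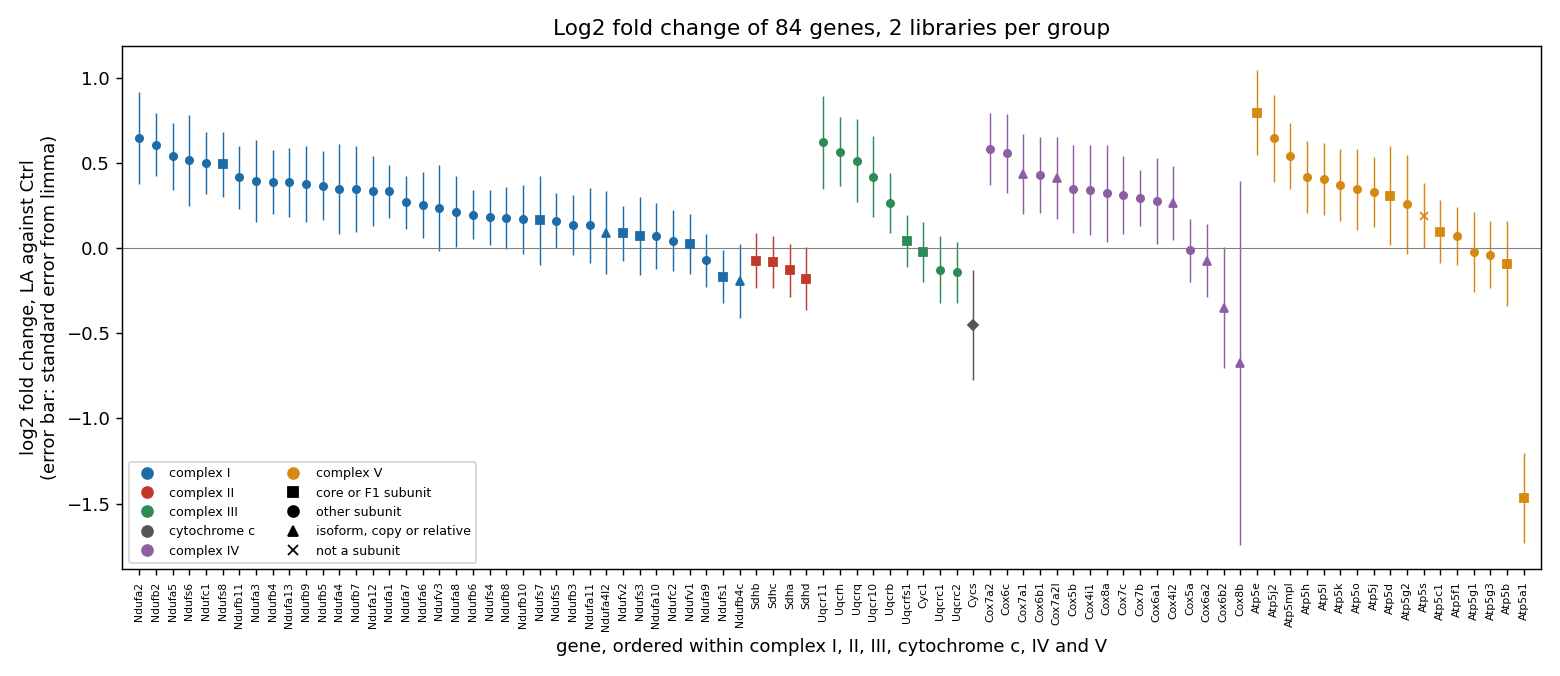
Difference of log2(FPKM + 1) between LA and Ctrl for 84 of the tested genes, ordered within each complex, with the standard error from limma as the bar and 2 libraries in each group. Colours give the complex and marker shapes the class of subunit. All 4 genes of complex II lie below 0, and Atp5a1 lies lowest at -1.47. The small subunits of complex III lie above Cyc1, Uqcrfs1, Uqcrc1 and Uqcrc2. Of these, Uqcrc1 and Uqcrc2 carry the marker of other subunits, as the small subunits do.

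The LA libraries did not contribute equally. The median deviation of the members from their mean over the 4 libraries was -0.18 (replicate 2) and -0.08 (replicate 3) for Ctrl and -0.03 (replicate 1) and 0.30 (replicate 2) for LA, on the log2 scale. LA replicate 2 lay above both Ctrl libraries for 68 of 85 members (80.0%), against 33.4% of all genes. LA replicate 1 did so for 48 members (56.5%), against 40.4% of all genes. The highest of the 4 values was that of LA replicate 2 for 74.1% of the members, against 26.0% of all genes. Summed over the members, FPKM was 12816 and 13679 in Ctrl and 14439 and 18312 in LA. A fit with a library left out sets 2 libraries against 1, so the spread within the smaller group is not measured. Genes called in such a fit are therefore not shown to differ between the groups. Without Ctrl replicate 3, the library with choroid plexus markers, the median difference of the members was 0.33, with 69 of 85 positive. Without LA replicate 2 the median difference of the members was 0.10, with 54 of 85 positive and 0 called, against 0.0148% of all genes. Without LA replicate 1 it was 0.41, with 70 of 85 positive and 6 called, against 1.31% of all genes (177 of 13518). These 6 were Atp5e, Atp5j2, Ndufa2, Ndufs6 and Uqcr11, which were higher, and Cycs, which was lower.

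**Figure D3:**
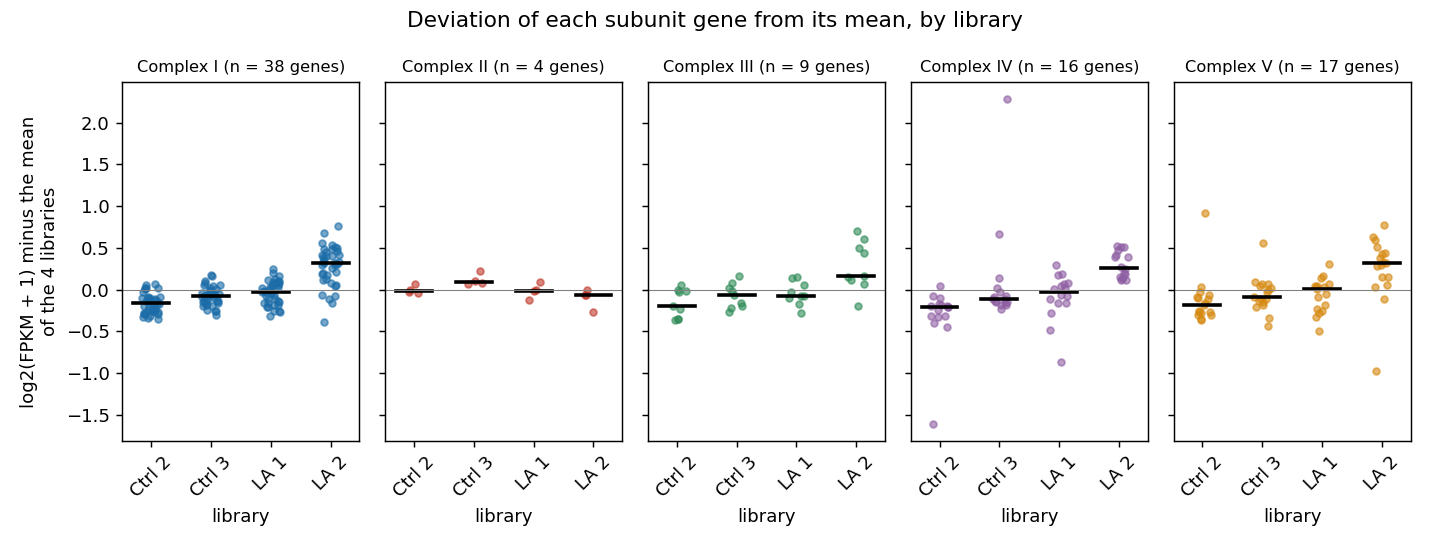
Deviation of log2(FPKM + 1) from the mean of the 4 libraries for each tested gene (points) by library and complex, with the median as a black line. LA replicate 2 stands above the other libraries in complexes I, III, IV and V and not in complex II, and the median over all members is 0.30 in LA replicate 2 against -0.03 in LA replicate 1.

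Complex I, NADH dehydrogenase, is built on a peripheral arm of 7 nuclear core subunits that bind the flavin and the iron-sulphur clusters. The median difference of these 7 genes was 0.07. Ndufs1, the largest subunit, which holds several of the clusters, was at 56.4 and 62.9 FPKM in Ctrl and at 56.0 and 50.2 FPKM in LA. Its LA libraries lay below its Ctrl libraries, with a difference of -0.17 (adjusted p = 0.838). Ndufs8, which carries clusters near the ubiquinone site, was at 62.2 and 68.7 FPKM in Ctrl and at 79.1 and 108 FPKM in LA. It was the core gene whose LA libraries both lay above Ctrl, with a difference of 0.49 (adjusted p = 0.609). Ndufv1, which binds the flavin, and Ndufv2, Ndufs3 and Ndufs7 had differences of 0.02, 0.09, 0.07 and 0.16, and their groups overlapped.

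The accessory subunits surround the core and are needed for its assembly and stability. Of 29 accessory genes, 28 had a positive difference, and the median difference was 0.33. The groups did not overlap for 19 (65.5%), all higher in LA, against 17.6% of all genes. Ndufb2, a small subunit of the membrane arm, was at 79.0 and 84.0 FPKM in Ctrl and at 109 and 143 FPKM in LA. Its difference was 0.61 with a standard error of 0.18, the smallest p of complex I (adjusted p = 0.512). Ndufa5, a subunit of the peripheral arm, was at 106 and 109 FPKM in Ctrl and at 135 and 183 FPKM in LA. Ndufc1, another subunit of the membrane arm, was at 69.6 and 70.2 FPKM in Ctrl and at 86.4 and 114 FPKM in LA. In both genes the Ctrl libraries were close together and the LA libraries were above them, with differences of 0.54 and 0.50 (adjusted p = 0.609 for each).

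Ndufa2, a small subunit of the peripheral arm, was at 57.9 and 59.1 FPKM in Ctrl and at 68.0 and 125 FPKM in LA. Ndufs6, which binds zinc, was at 63.8 and 69.9 FPKM in Ctrl and at 71.6 and 128 FPKM in LA. In these genes LA replicate 2 stood far above LA replicate 1. The differences of 0.65 and 0.52 (adjusted p = 0.630 and 0.709) became 1.08 and 0.93 without LA replicate 1. They were 0.21 and 0.10 without LA replicate 2. Ndufb9, a subunit of the membrane arm and the second most abundant gene of the group, was at 226 and 239 FPKM in Ctrl and at 259 and 354 FPKM in LA, a difference of 0.38.

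Ndufa4 carries a complex I name, but its protein is bound in complex IV. It was at 570 and 670 FPKM in Ctrl and at 707 and 876 FPKM in LA, a difference of 0.35 (adjusted p = 0.799). Counting it in complex IV left the medians at 0.21 in complex I and 0.32 in complex IV. Ndufb4c, an annotated copy of Ndufb4, went the other way from Ndufb4 in LA replicate 2. Ndufb4, a membrane arm subunit, was at 154 and 175 FPKM in Ctrl and at 199.7 and 232 FPKM in LA, whereas Ndufb4c was at 70.9 and 79.6 FPKM in Ctrl and at 80.8 and 53.3 FPKM in LA. The level of Ndufb4c was thus 46.1% and 45.4% of that of Ndufb4 in Ctrl and 40.5% and 23.0% in LA. Of the 50-base stretches of the Ndufb4 transcript, 37.0% occurred in another annotated gene, so the division of fragments between such copies is uncertain.

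Complex II, succinate dehydrogenase, also serves the tricarboxylic acid cycle. It was the complex with no positive difference, and none of its 4 genes passed the test. Sdha, the flavoprotein that oxidizes succinate, was at 114 and 114 FPKM in Ctrl and at 99.9 and 108 FPKM in LA. Sdhb, the iron-sulphur protein, was at 130 and 137 FPKM in Ctrl and at 129 and 124 FPKM in LA. In both, the LA libraries lay below the Ctrl libraries by small margins, with differences of -0.13 and -0.07. Sdhc and Sdhd encode the membrane anchors that bind ubiquinone. Sdhc was at 73.4 and 80.4 FPKM in Ctrl and at 73.7 and 71.4 FPKM in LA, and Sdhd was at 49.5 and 59.7 FPKM in Ctrl and at 54.3 and 42.1 FPKM in LA. The differences of these anchors were -0.08 and -0.18, and their groups overlapped. LA replicate 2 was the lowest of the 4 libraries for Sdhb, Sdhc and Sdhd, although it was the highest for most other members. The median of complex II was negative under every alternative run, from -0.19 after quantile normalization to -0.04 without Ctrl replicate 3.

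The 18 genes of the tricarboxylic acid cycle, which were listed for comparison and include the complex II genes, had a median difference of -0.15. Of these, 15 had a negative difference and none passed the test. The LA libraries lay below Ctrl for 11 (61.1%), against 21.0% of all genes. The smallest p belonged to Suclg2, a subunit of succinyl-CoA ligase, at 7.85 and 8.67 FPKM in Ctrl and at 6.47 and 5.85 FPKM in LA (adjusted p = 0.681).

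Complex III, the cytochrome bc1 complex, divided by size of subunit. The 4 genes of the large and redox-active proteins had a median difference of -0.07, and the groups overlapped for each. Cyc1, cytochrome c1, was at 115 and 117 FPKM in Ctrl and at 102 and 128 FPKM in LA. Uqcrfs1, the Rieske iron-sulphur protein, was at 78.4 and 78.7 FPKM in Ctrl and at 78.1 and 83.9 FPKM in LA. The core proteins Uqcrc1 and Uqcrc2 had differences of -0.13 and -0.14 (adjusted p = 0.917 and 0.888). In contrast, the LA libraries lay above Ctrl for all 5 genes of the small subunits, against 17.6% of all genes. These 5 genes had a median difference of 0.51. Uqcrh, the hinge protein that binds cytochrome c1, was at 191 and 210 FPKM in Ctrl and at 267 and 330 FPKM in LA, a difference of 0.57 (SE 0.20, adjusted p = 0.605). Uqcr11, which encodes the smallest subunit, was at 182 and 192 FPKM in Ctrl and at 220.0 and 379 FPKM in LA. Its difference of 0.62 (adjusted p = 0.654) became 1.01 without LA replicate 1 and 0.23 without LA replicate 2. Uqcrq, which contacts cytochrome b, was at 69.5 and 80.2 FPKM in Ctrl and at 83.5 and 137 FPKM in LA. Uqcr10 was at 215 and 221 FPKM in Ctrl and at 240 and 355 FPKM in LA. For both, LA replicate 1 was a little above the higher Ctrl library and LA replicate 2 far above it, and the differences were 0.51 and 0.42.

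Cycs, which encodes the carrier between complexes III and IV, was at 62.2 and 69.5 FPKM in Ctrl and at 70.6 and 32.4 FPKM in LA. LA replicate 2 was thus the low library, against its position for most members. The difference was -0.45 (adjusted p = 0.783), turned to 0.10 when LA replicate 2 was left out, and reached -1.0 without LA replicate 1. Cycs has many processed copies in the genome, and 28.5% of the 50-base stretches of its transcript occurred in other annotated genes, so its level is uncertain. As a share of Cyc1, its FPKM was 54.2% and 59.4% in Ctrl and 69.3% and 25.4% in LA.

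Complex IV, cytochrome c oxidase, has a catalytic core encoded by mitochondrial DNA, so that all of its nuclear genes encode surrounding subunits. Among the 10 generally expressed ones, 9 had a positive difference, with a median of 0.33. The LA libraries lay above Ctrl for 8 of them (80.0%), against 17.6% of all genes. Cox7a2, the isoform of subunit VIIa used in brain, was at 125 and 146 FPKM in Ctrl and at 173 and 236 FPKM in LA. Cox6c was at 322 and 341 FPKM in Ctrl and at 425 and 559 FPKM in LA. The differences of 0.58 and 0.56 were the largest of the complex (adjusted p = 0.609 and 0.630). Cox6b1, which faces cytochrome c, was at 323 and 335 FPKM in Ctrl and at 393 and 499 FPKM in LA. Cox4i1, the common isoform of the largest nuclear subunit, was at 481 and 503 FPKM in Ctrl and at 526 and 740 FPKM in LA. For the most abundant members, Cox8a and Cox6a1, the LA libraries were also above Ctrl. Cox8a was at 739 and 749 FPKM in Ctrl and at 792 and 1093 FPKM in LA, and Cox6a1 was at 559 and 611 FPKM in Ctrl and at 646 and 778 FPKM in LA. The differences were 0.43 for Cox6b1, 0.34 for Cox4i1, 0.32 for Cox8a and 0.28 for Cox6a1, with that of Cox8a at -0.01 after quantile normalization.

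The isoforms of complex IV that mark other tissues were low. Cox4i2, the lung isoform, stayed at 0.157% to 0.194% of the level of Cox4i1. Cox6a2, of heart and muscle, stayed at 1.00% to 1.47% of Cox6a1. Cox6b2, the testis isoform, stayed at 0.740% to 2.29% of Cox6b1, and Cox7a1, of heart and muscle, at 1.14% to 1.79% of Cox7a2. The generally expressed isoform was thus the more abundant in each library. Cox8b, of heart and muscle, was the exception in its spread, at 0.18 and 16.6 FPKM in Ctrl and at 0.98 and 3.12 FPKM in LA. Ctrl replicate 3 alone was high, the library in which choroid plexus markers summed to 8936 FPKM, and the part of that tissue in the value was not tested. The difference of Cox8b was -0.67 (adjusted p = 0.919), 1.28 without Ctrl replicate 3 and -2.62 without Ctrl replicate 2, and -0.21 with a pseudocount of 0.1.

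Complex V, ATP synthase, joins a catalytic F1 head to a membrane part, Fo, through a central and a peripheral stalk. Of the 5 F1 genes, Atp5e and Atp5a1 had the extreme differences of all members, in opposite directions. Atp5e, the epsilon subunit of the central stalk, was at 101.5 and 96.5 FPKM in Ctrl and at 133 and 224 FPKM in LA. Its difference was 0.80 (SE 0.25, adjusted p = 0.538), 1.17 without LA replicate 1 and 0.43 without LA replicate 2. Atp5a1, the alpha subunit, was at 2.69 and 1.88 FPKM in Ctrl and at 0.39 FPKM in LA replicate 1, and it was listed at 0 in LA replicate 2. Its partner Atp5b, the beta subunit, was at 553 and 567 FPKM in Ctrl and at 461 and 600 FPKM in LA. The F1 head holds the alpha and beta proteins in equal number, whereas the listed level of Atp5a1 was 0% to 0.487% of that of Atp5b. A 0 in this table can be a failed estimate. The difference of Atp5a1 was -1.47 (adjusted p = 0.158, the smallest of the members). At such low levels the value depended on the pseudocount and was -3.41 with 0.1 (adjusted p = 0.379) and -2.05 with 0.5 (adjusted p = 0.174). The value became -1.29 without Ctrl replicate 2 and -1.65 without Ctrl replicate 3 (adjusted p = 0.0117 and 0.00248), where 1.68% and 0.577% of all genes were called. Each of these fits of Atp5a1 rests on 1 Ctrl library, so the spread within Ctrl is not measured. Their adjusted p-values thus do not show that Atp5a1 differed. The gamma and delta subunits, Atp5c1 and Atp5d, had differences of 0.10 and 0.31.

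The 11 genes of Fo and the stalks had a median difference of 0.35. The LA libraries lay above Ctrl for 6 of them (54.5%), against 17.6% of all genes. Atp5j2, the f subunit of the membrane part, was at 275 and 267 FPKM in Ctrl and at 342 and 527 FPKM in LA. The difference of 0.65 (adjusted p = 0.610) became 0.96 without LA replicate 1 and 0.33 without LA replicate 2. Atp5mpl, a small membrane protein of the complex, was at 180 and 203 FPKM in Ctrl and at 258 and 300 FPKM in LA, so that both LA libraries stood apart from Ctrl (difference 0.54, adjusted p = 0.607). Atp5h, the d subunit of the peripheral stalk, was at 320 and 346 FPKM in Ctrl and at 424 and 466 FPKM in LA, a difference of 0.42. Of its stretches, 50.5% occurred in other genes.

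The genes Atp5g1, Atp5g2 and Atp5g3, encode the same mature c subunit, the ring that turns with the proton flow. Atp5g3 was at 190 and 203 FPKM in Ctrl and at 170 and 215 FPKM in LA, and Atp5g1 was at 111 and 124 FPKM in Ctrl and at 92.2 and 145 FPKM in LA. Atp5g2 was low, at 1.39 and 1.92 FPKM in Ctrl and at 1.42 and 3.12 FPKM in LA. The groups overlapped for all 3, the differences were -0.02 for Atp5g1, 0.26 for Atp5g2 and -0.04 for Atp5g3, and 87.4% of the stretches of Atp5g2 occurred in other genes. The order Atp5g3, Atp5g1, Atp5g2 was the same in each library. Atp5s matched the rule by its symbol and is not a subunit of the enzyme. Leaving it out moved the median of complex V from 0.31 to 0.32.

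The promoters of these genes are known to share binding sites for nuclear respiratory factors, which tie mitochondrial genes to each other. RefSeq windows from 250 bases before to 50 after the start, build GRCm38.p6, were found for 69 of the 87 members, with 74 windows in all. The letters CCGGAAG of the GABP (NRF2) motif, on either strand, were in 16 windows (21.6%), against 8.86% of all 32851 windows. The palindrome GCGCATGCGC of NRF1 was in 5 (6.76%, against 0.971%), AAGATGGCG of YY1 in 7 (9.46%, against 1.40%) and TCAAGGTCA of ERR in 2 (2.70%, against 0.423%). Members with the GABP letters had a median difference of 0.36 (16 tested) and those without 0.23 (52 tested), and the same medians were 0.33 and 0.27 for YY1 0.26 and 0.30 for NRF1, and -0.11 (2 tested) and 0.29 (66 tested) for ERR. Matches are letters in a window and not sites shown to be bound.

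The 225 bases from -250 to -26 before the start are shown for Atp5e and Uqcr11, the members with the highest positive difference of complexes V and III, and for Cox6a1, an abundant member with a match to NRF1. The capitals mark the GABP match in Atp5e and Uqcr11 and the NRF1 match in Cox6a1, and the strand is that of the gene. The windows lie at chr2:174464127-174464351, chr10:80406847-80407071 and chr5:115348984-115349208 of GRCm38.p6, each on the minus strand.
Atp5e: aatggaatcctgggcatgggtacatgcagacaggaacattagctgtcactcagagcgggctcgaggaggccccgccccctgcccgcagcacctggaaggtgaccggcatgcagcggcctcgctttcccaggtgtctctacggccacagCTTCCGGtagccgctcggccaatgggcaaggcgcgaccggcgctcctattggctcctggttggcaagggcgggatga
Uqcr11: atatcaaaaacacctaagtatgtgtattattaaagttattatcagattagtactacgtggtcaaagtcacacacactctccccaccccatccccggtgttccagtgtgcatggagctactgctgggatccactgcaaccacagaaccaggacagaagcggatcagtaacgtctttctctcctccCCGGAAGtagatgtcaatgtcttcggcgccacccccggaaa
Cox6a1: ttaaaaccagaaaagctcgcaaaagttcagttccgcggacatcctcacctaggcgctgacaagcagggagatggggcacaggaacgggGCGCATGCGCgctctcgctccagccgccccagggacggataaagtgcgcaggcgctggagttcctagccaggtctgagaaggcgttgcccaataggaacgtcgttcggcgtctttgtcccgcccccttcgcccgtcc
In Atp5e the match reads on the opposite strand, as CTTCCGG.

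The YY1 letters lay at a like place in most of the members that held them. In 6 of the 7 members the first base of the match was base 23 to 36 after the start, in each on the strand of the gene. In Atp5j, which also had a window with no match, it lay before the start of the window that held it. Stretches of 23 to 25 bases around the match are shown for 4 of them, with the match in capitals, to let the flanks be compared. Ndufc1 (chr3:51408917-51408941) and Ndufs6 (chr13:73328433-73328457) were described above, and Ndufs4 (chr13:114388045-114388067) and Ndufs7 (chr10:80249465-80249489) belong to the same complex, the first 3 on the minus strand and Ndufs7 on the plus strand.
Ndufc1: tgcggaacAAGATGGCGccgtccgt
Ndufs6: tcaccggcAAGATGGCGgcggtgct
Ndufs4: cctacaggAAGATGGCGgcggtc
Ndufs7: ccgaggccAAGATGGCGgcgctggc

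The size of the difference followed transcript length. Many subunits of the chain are small proteins with short transcripts, and the median length was 824 bases for the members and 3018 bases for all genes tested. Over the 84 members with an annotated length, the correlation of the difference with log2 length was -0.47 (Spearman) and -0.43 (Pearson), and over 12980 genes it was -0.25 and -0.21. Genes of a library are not independent, and no p is given. The median difference of the members was 0.38 for 22 members under 600 bases, 0.32 for 30 from 600 to under 1000 bases, 0.08 for 24 from 1000 to under 2000 bases and -0.11 for 8 of 2000 bases or more. The same medians over all genes were 0.34, 0.22, 0.05 and -0.05. Length also differed between the groups of subunits compared above, with a median of 732 bases for the accessory and 1623 bases for the core genes of complex I, 535 and 1586 bases for the small and the large proteins of complex III, and 2066 bases for complex II.

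**Figure D4:**
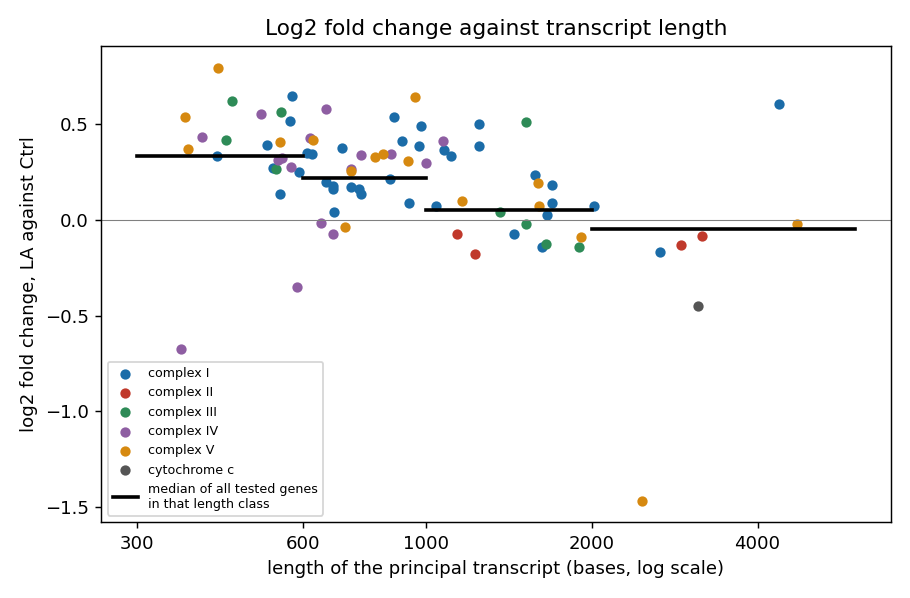
Difference of log2(FPKM + 1) between LA and Ctrl (vertical axis) against the length of the principal transcript in bases (log axis) for 84 members, coloured by complex. The black lines are medians of all tested genes in 4 length classes, which step down from 0.34 to -0.05, and most short members lie around or above the line of their class.

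When each library was corrected for transcript length and GC content over all genes, the median difference of the members was 0.05, with 49 of 84 positive. It was 0.05 in complex I, -0.14 in complex II, -0.04 in complex III, 0.08 in complex IV and 0.07 in complex V. With length alone the median of all members was 0.04, and with GC content alone it was 0.27. The positive medians of complexes I, IV and V thus shrank and that of complex III changed sign, whereas that of complex II stayed negative. The deviation of a member correlated with length at 0.54 and 0.41 in Ctrl and at -0.13 and -0.37 in LA, in the order of the replicates, and with GC content at -0.11 and -0.10 in Ctrl and at -0.57 and 0.43 in LA (Spearman, 84 members). Over the members, length thus went with the values of the Ctrl libraries and of LA replicate 2. These deviations sum to 0 over the libraries. For Ctrl replicate 3 the Pearson correlation with log2 length over the members was only 0.07. Over 12980 genes the deviation correlated with length at 0.26 and 0.14 in Ctrl and at 0.22 and -0.43 in LA (Spearman). Whether short transcripts were captured differently in these libraries was not tested.

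**Figure D5:**
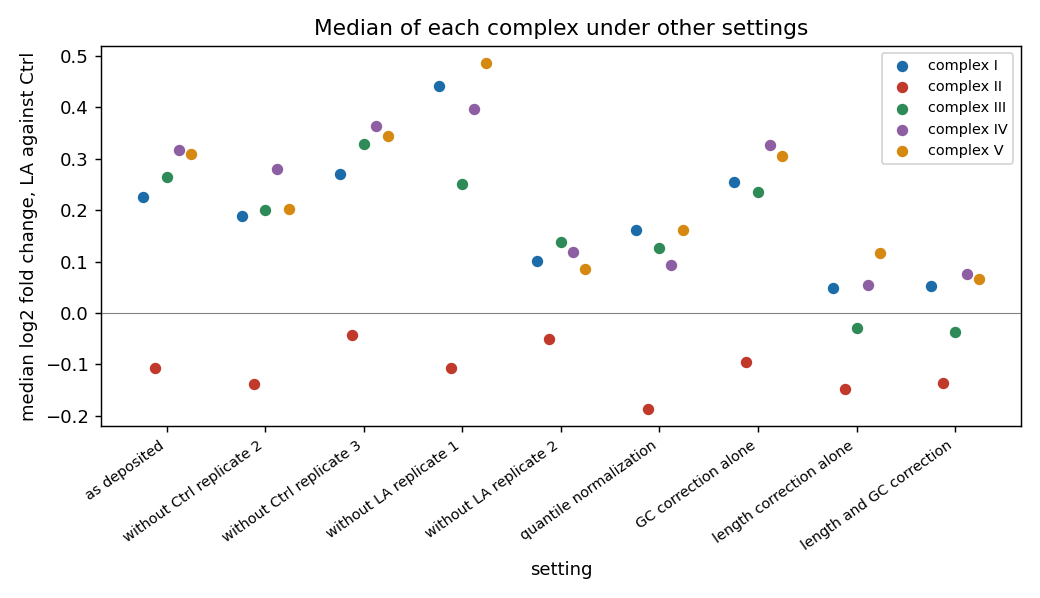
Median difference of log2(FPKM + 1) between LA and Ctrl for each complex (vertical axis) as deposited, with each library left out, and under quantile normalization and corrections for GC content and length. Complex II is below 0 in each setting, complexes I, IV and V are above 0 in each, and complex III falls below 0 after the corrections for length.

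Other gene lists of the mitochondrion and of translation were set beside the members. The 55 tested assembly factors insert cofactors and join subunits but are not part of the enzymes. They had a median difference of 0.20, with 41 positive and none called. The LA libraries lay above Ctrl for 22 (40.0%) and below for 4 (7.27%), against 17.6% and 21.0% of all genes. Cox16, an assembly factor of complex IV, was at 13.5 and 14.3 FPKM in Ctrl and at 25.2 and 22.9 FPKM in LA (difference 0.75, adjusted p = 0.247). Cox20, a chaperone of a mitochondrially encoded subunit, and Ndufaf2, which assists complex I, had differences of 0.56 and 0.57 (adjusted p = 0.458 and 0.420). For these 3 genes LA replicate 1 also stood well above Ctrl. The 15 tested regulators of mitochondrial biogenesis had a median of 0.09 with 12 positive, the 78 genes of the mitochondrial ribosome 0.14 with 59 positive, and the 19 genes of the outer membrane and of protein import -0.06 with 7 positive, none of them called. The 81 genes of the cytosolic ribosome, which also have short transcripts (median 835 bases), had a median of 0.54 with 79 positive and none called, and their median deviation in LA replicate 2 was 0.54. The median of the members thus lay between that of the cytosolic and that of the mitochondrial ribosome, and the differences between the lists were not tested.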

How the data were processed

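The authors deposited FPKM values for 4 hippocampus libraries, 1 column each. According to the submitters' processing notes they used Cufflinks and TopHat2 with build GRCm38, with no version or annotation. The paper given with the series describes human adipose stem cells and no hippocampus libraries. Members and gene lists were chosen with earlier results of these data known. RefSeq gene numbers recovered 11 symbols that had become dates, and all 87 members were found there.

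The filter kept 13518 genes whose mean reached 1 FPKM. On log2(FPKM + 1), thus with a pseudocount of 1, limma 3.58.1 (R 4.3.3, lmFit and eBayes with trend, 5.37 prior and 2 residual degrees of freedom) gave the LA against Ctrl difference, with Benjamini-Hochberg adjustment over all genes and a threshold of 0.05. Differences understate the change of low genes. An exact two-sided permutation test of 2 against 2 cannot go below p = 0.333. The procedure was tested on simulated data, in which most changes of 1 on the log2 scale, more than the difference of any member but Atp5a1, were not recovered. Lengths and GC content come from the principal transcript in GENCODE, found for 96.0% of the genes tested, and corrections used splines with 4 degrees of freedom. The length and GC corrections taken singly, the set of members with less shared sequence and the set without isoforms were added after seeing the data. Shared sequence was counted in stretches of 50 bases. Promoters are RefSeq sequences.

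Members were named by rule: in each complex the 3 of smallest p, the 2 highest and the lowest in level, those listed at 0 or not tested, isoform pairs, the c subunit genes, complex II and Cycs, and of each other list up to 3 genes of smallest p. The core genes of complexes I and III and some further members (16 in all) were named for their role or after their values were seen, and 1 member is not reported singly here. Alternatives were pseudocounts of 0.1 and 0.5, no filter or a minimum of 5 FPKM, quantile normalization or median-ratio scaling, leaving out each library, and limma with robust estimation or with no trend.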

Additional observations from a re-analysis of the deposited data

How the results depend on the processing

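No paired analysis was possible because the groups share only replicate number 2. Leaving out a library leaves 1 library in that group, whose spread is then not measured. Counts of called genes from such fits therefore do not show that those genes differed. The count of members called was 0 as deposited and in each other setting run except leaving out a library, where it ranged from 0 (without LA replicate 2) to 6 (without LA replicate 1). The count over all genes, 19, was 0 with no filter on low values (19080 genes tested), 40 with robust estimation, 36 with the length and GC correction, 29 with length alone and 43 with GC content alone, and 2 to 227 with a library left out, lowest without LA replicate 2 and highest without Ctrl replicate 2. The median difference of all members was 0.049 with the length and GC correction and 0.044 with length alone. In the same order it was -0.037 and -0.029 in complex III, 0.075 and 0.054 in complex IV and 0.066 and 0.12 in complex V, so that of complex III reversed. After quantile normalization it was 0.14 over all members (57 of 85 positive), -0.19 in complex II, 0.13 in complex III, 0.093 in complex IV and 0.16 in complex V. With a library left out it ranged from 0.099 to 0.41 over all members, 0.10 to 0.44 in complex I, -0.14 to -0.042 in complex II, 0.14 to 0.33 in complex III, 0.12 to 0.40 in complex IV and 0.086 to 0.49 in complex V, lowest without LA replicate 2 over all members and in complexes I, III, IV and V. A pseudocount of 0.1 moved Atp5a1 to -3.41, Cox4i2 to 0.48 and Cox8b to -0.21. The sign turned under quantile normalization for Atp5c1 (-0.078), Cox8a (-0.015), Ndufs3 (-0.020), Ndufv1 (-0.019) and Uqcrfs1 (-0.011). The sign turned under median-ratio scaling for Atp5g1 (0.0015) and Cyc1 (0.00070). The sign turned under the length and GC correction for Atp5c1 (-0.016), Atp5g1 (0.037), Ndufs3 (-0.042), Ndufs7 (-0.023), Ndufv2 (-0.018) and Uqcrfs1 (-0.037). The sign turned under length alone for Atp5c1 (-0.0087), Atp5g1 (0.032), Ndufs3 (-0.056), Ndufs7 (-0.040), Ndufv1 (-0.019) and Uqcrfs1 (-0.033). With a library left out, the sign turned in at least 1 case for Atp5b (-0.28 to 0.10), Atp5d (-0.13 to 0.75), Atp5g1 (-0.34 to 0.30), Atp5g2 (-0.13 to 0.64), Atp5g3 (-0.21 to 0.13), Cox6a2 (-0.31 to 0.17), Cox6b2 (-0.84 to 0.15), Cox8b (-2.62 to 1.28), Cyc1 (-0.18 to 0.14), Cycs (-1.0 to 0.10), Ndufb4c (-0.49 to 0.10), Ndufs3 (-0.22 to 0.37), Ndufs7 (-0.24 to 0.57), Ndufv1 (-0.17 to 0.22), Uqcrc1 (-0.35 to 0.094), Uqcrfs1 (-0.0085 to 0.094) and Timm13 (-0.095 to 0.69), given as the range over the 4 libraries. Among the genes named, 957 of 1009 alternative values of single genes kept their direction and their side of the threshold. None of the genes whose sign turned was called as deposited, and the cause was not tested. Fold changes of single genes rest on 2 libraries a group, and FPKM without read totals does not give the counting error of low members such as Atp5g2, Cox4i2 or Atp5a1.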
